A study of Mus musculus with 24 samples.

Results

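The genes described here encode proteins that hold the cells of kidney tubules together: the cadherins Cdh1, Cdh2 and Cdh16, the tight junction proteins Ocln and Tjp1, and the claudins Cldn1, Cldn2, Cldn3, Cldn4 and Cldn7. They were chosen by gene symbol, with earlier results of these data known. All 10 had a row among the 14785 genes of the deposited expression table. Poly(A)-selected RNA from mouse kidney, named in the study's title as cortical, was sequenced in 24 libraries from 24 animals, 4 in each of 6 groups, after reversible unilateral ureteral obstruction (tying off the ureter of 1 kidney and later reimplanting it). All animals were male C57/BL6 mice labelled 8 weeks old, with no transgene named, and the 4 sequenced in each group were selected from 10. The groups were sham surgery (sham), obstruction for 2 days (UUO2) or 7 days (UUO7), and 7 days of obstruction followed by reimplantation and 1, 2 or 4 weeks of recovery (R1W, R2W, R4W). The labels do not say when the sham kidneys were taken. The R4W library numbered 2 carries 4 weeks in its title and 2 weeks in its treatment label, and was grouped by the title.

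Adherens junctions join neighbouring epithelial cells through cadherins, whose outer parts bind each other across the gap and whose inner parts hold catenins and actin. Tight junctions lie closer to the lumen and set which ions and solutes pass between cells. Claudins form their strands, and the set of claudins in a nephron segment decides its permeability: some form pores, as Cldn2 does for cations and water in the proximal tubule, and others seal or form anion paths, as Cldn3, Cldn4 and Cldn7 do in distal segments and the collecting duct. Ureteral obstruction is a standard model of tubular injury and fibrosis.

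Values are FPKM, fragment counts scaled to transcript length and to the sequencing depth of the library, so levels can be compared between genes. Differences were tested with limma on log2(FPKM + 1) over all 14785 genes and a gene was called where its p, adjusted by the Benjamini-Hochberg method, was under 0.05. Differences are given as log2 fold changes, which understate changes of low genes. FPKM is relative to the rest of the library, and the median gene of the deposited values stood 0.42 higher on the log2 scale in UUO7 than in sham, 0.37 in R1W, 0.32 in R2W, 0.30 in R4W and 0.09 in UUO2. Each difference was therefore also tested on values rescaled so that the median gene is level across libraries. A gene is described as risen or fallen only where both scales called it in that direction; otherwise both values are given.

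Markers of the labelled tissue were present: none of the tubular marker lists had a gene at 0 in all libraries of a group. Steps of whole fragments in the values of 20 libraries implied 24574000 to 35336000 fragments each. No such steps were found in the 4 UUO2 libraries, and the series text speaks of 20 libraries sequenced together, so a difference in sequencing and the UUO2 group cannot be told apart. Sham replicate 2 stood apart from the other sham libraries. Its 8 collecting duct principal cell markers summed to 953 FPKM (389 to 535 in the other 3), and its 6 urothelial markers to 39.5 FPKM (1.74 to 3.10 in the other 3). The urothelium lines the renal pelvis and ureter.

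After 7 days of obstruction, 4 claudins and the scaffold gene Tjp1 rose and the pore claudin Cldn2 fell, and all of these were still displaced from sham 4 weeks after reimplantation. On deposited values, 8 of the 10 junction genes were called in UUO7 against sham, 7 higher and 1 lower. In that comparison 77.9% of all genes were called, 60.1% higher and 17.8% lower. On rescaled values 8 were again called, 5 higher and 3 lower, where 73.0% of all genes were called and 36.5% went each way. The count is therefore close to the background. By size, the median of the 10 differences was 0.86 on deposited and 0.40 on rescaled values, against 0.42 and 0.01 over all genes. The genes were chosen with earlier results of these data known, so these medians are descriptions and no test of the set. The difference between scales concerned the cadherins and Ocln, as the plot of differences from sham shows.

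**Figure D1:**
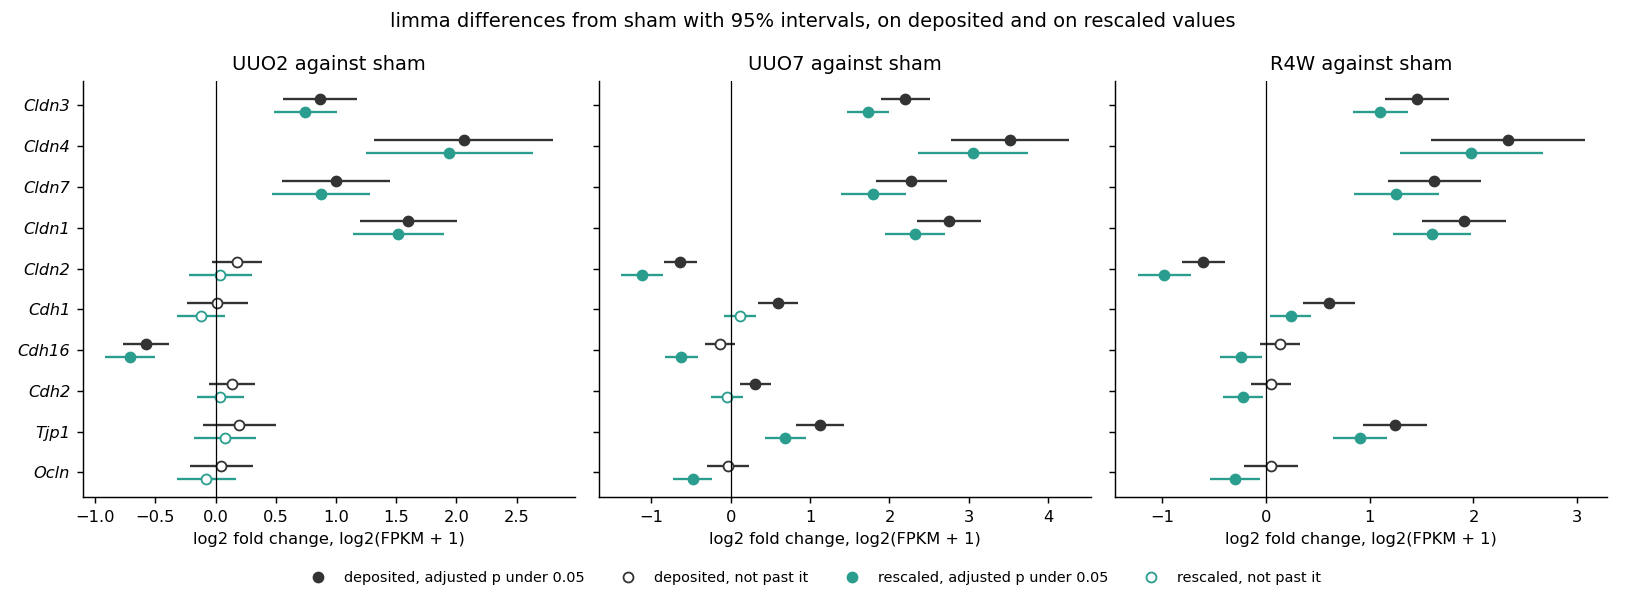
Log2 fold change on log2(FPKM + 1) with its 95% interval (x axis) for each junction gene (y axis) in UUO2, UUO7 and R4W against sham, on deposited (dark) and rescaled (green) values; filled points have an adjusted p under 0.05 in limma. Cldn1, Cldn3, Cldn4 and Cldn7 lie right of 0 in every panel, Cldn2 lies left of 0 in UUO7 and R4W, and Cdh1, Cdh2, Cdh16 and Ocln change their call with the scale in at least 1 panel.

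Cldn4, a claudin of the collecting duct and of many lining epithelia, showed the greatest difference. Its level in the 4 sham libraries was 9.74, 34.5, 10.9 and 12.8 FPKM, and in the UUO2 libraries 93.1, 31.6, 58.5 and 103 FPKM. In UUO7 it was 169, 169, 194 and 191 FPKM. All UUO7 libraries lay above all sham and UUO2 libraries, whereas UUO2 replicate 2 lay below sham replicate 2. By limma Cldn4 rose by 2.06 (SE 0.36, adjusted p = 7.3e-05) at 2 days and by 3.52 (SE 0.36, adjusted p = 1.75e-08) at 7 days, and by 1.94 and 3.05 on rescaled values. Without sham replicate 2 the 7-day difference was 3.91. During recovery Cldn4 was 70.9 to 160 FPKM in R1W, 59.8 to 131 FPKM in R2W and 84.8, 70.7, 87.9 and 73.2 FPKM in R4W. The recovery libraries thus lay below every UUO7 library and above every sham library.

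Cldn7 and Cldn3, which in the kidney are found mainly in the distal nephron and collecting duct, also rose. Cldn7 was 27.5, 38.7, 21.9 and 25.3 FPKM in sham, 62.6, 33.4, 55.0 and 88.1 FPKM in UUO2, and 138, 133, 149 and 133 FPKM in UUO7. The UUO2 range overlapped sham through UUO2 replicate 2, and the UUO7 libraries lay above both groups. Cldn3 was 12.4, 15.6, 12.2 and 14.1 FPKM in sham, 24.4, 19.0, 27.6 and 32.8 FPKM in UUO2, and 65.2, 62.6, 65.8 and 69.1 FPKM in UUO7. Its 3 groups did not overlap. At 7 days Cldn7 rose by 2.27 (SE 0.21, limma adjusted p = 6.76e-09) and Cldn3 by 2.20 (SE 0.15, adjusted p = 1.09e-10), and on rescaled values by 1.80 and 1.73. At 2 days Cldn3 was higher than sham by 0.87 (SE 0.15, adjusted p = 6.65e-05) and Cldn7 by 1.00 (SE 0.21, adjusted p = 0.000622), both also called on rescaled values. In recovery Cldn3 was 39.3 to 52.1 FPKM in R1W, 33.1 to 55.1 FPKM in R2W and 32.7 to 46.6 FPKM in R4W, below every UUO7 library and above every sham library. Cldn7 was 89.4 to 127 FPKM in R1W, 83.2 to 136 FPKM in R2W and 79.1 to 98.8 FPKM in R4W, above every sham library, and R2W replicate 3 lay inside the UUO7 range.

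Cldn1, which in the mouse kidney marks the parietal cells of Bowman's capsule, started from the lowest level of the claudins. It was 3.61, 2.25, 3.70 and 3.84 FPKM in sham, 12.6, 10.2, 13.6 and 12.0 FPKM in UUO2, and 28.0, 27.0, 29.3 and 27.0 FPKM in UUO7. The 3 groups did not overlap, and the UUO7 libraries differed by little (27.8 ± 1.09 FPKM, SD, n = 4). Cldn1 rose by 1.60 (SE 0.19, limma adjusted p = 1.19e-06) at 2 days and by 2.74 (SE 0.19, adjusted p = 1.77e-10) at 7 days, and on rescaled values by 1.52 and 2.33. In recovery its libraries spread more: 16.6 to 26.7 FPKM in R1W, 12.0 to 22.4 FPKM in R2W, and 13.3, 19.9, 18.8 and 10.5 FPKM in R4W. Every recovery library was above every sham library.

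Cldn2, the cation and water pore of the proximal tubule, went the other way. Its sham level was 152, 131, 151 and 143 FPKM, and at 2 days it was 180, 166, 165 and 143 FPKM, overlapping sham. In UUO7 it was 98.5, 95.2, 81.7 and 95.7 FPKM, below every sham and UUO2 library. Cldn2 did not pass the test at 2 days (0.17, 95% interval -0.03 to 0.38, limma adjusted p = 0.157; rescaled 0.04). At 7 days it fell by 0.63 (SE 0.10, adjusted p = 7.18e-06), and by 1.12 on rescaled values. It stayed there: 78.0 to 97.8 FPKM in R1W, 77.3 to 113 FPKM in R2W, and 88.5, 94.8, 92.2 and 103 FPKM in R4W, again below every sham library. In bulk tissue, fewer cells of a type and less RNA per cell cannot be told apart, for this gene and the others here.

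**Figure D2:**
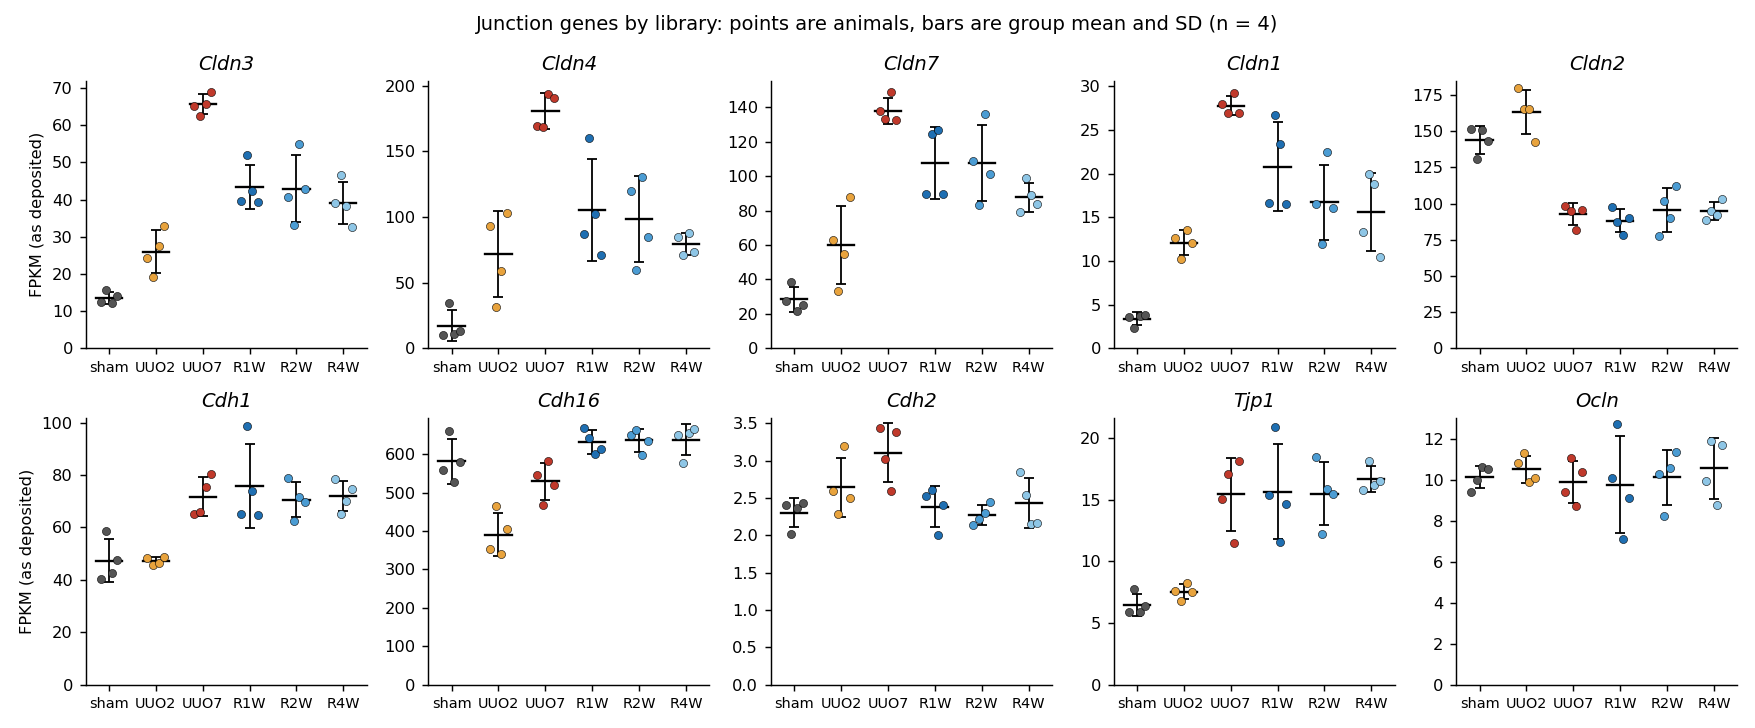
FPKM as deposited (y axis, from 0) for each junction gene in the 6 groups (x axis); points are libraries, and bars are the group mean and SD (n = 4). Cldn1, Cldn3 and Cldn4 are highest in the 4 UUO7 libraries, Cldn7 is highest in UUO7 apart from 1 R2W library (136 FPKM) that falls inside the UUO7 range, and all 4 genes lie above sham in R4W, whereas Cldn2 drops to 92.8 FPKM in UUO7 and stands at 94.7 FPKM in R4W.

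Cldn3 and Cldn4 are neighbours. In mm10, Cldn4 spans chr5:134945119-134946934 on the minus strand and Cldn3 spans chr5:134986214-134987472 on the plus strand. They lie 39279 bp apart, and 0 genes annotated in GENCODE M21 lie wholly between them. Wbscr25, an antisense gene model, overlaps Cldn3. Whether reads were assigned by strand is not given in the sources used here. Cldn7 (chr11:69964779-69967885, plus strand) and Cldn2 (chrX:139800828-139811386, plus strand) lie elsewhere. RefSeq promoters were read for 7 of the 10 genes. The 150 bases upstream of the RefSeq start are printed for the 3 claudins that rose together and for Cldn2, which fell, so that what they share can be seen in the letters. The intervals on GRCm38.p6 are chr5:134946935-134947084 (Cldn4, minus strand), chr5:134986064-134986213 (Cldn3, plus strand), chr11:69964629-69964778 (Cldn7, plus strand) and chrX:139800658-139800807 (Cldn2, plus strand). Capitals mark motif matches, read on both strands, and each line runs 5′ to 3′ on the gene's strand.
Cldn4: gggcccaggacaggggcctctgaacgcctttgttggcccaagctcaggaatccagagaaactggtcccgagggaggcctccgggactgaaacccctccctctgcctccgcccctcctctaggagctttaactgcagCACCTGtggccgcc
Cldn3: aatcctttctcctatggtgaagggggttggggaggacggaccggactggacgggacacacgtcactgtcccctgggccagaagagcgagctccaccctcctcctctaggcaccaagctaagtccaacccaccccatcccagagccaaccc
Cldn7: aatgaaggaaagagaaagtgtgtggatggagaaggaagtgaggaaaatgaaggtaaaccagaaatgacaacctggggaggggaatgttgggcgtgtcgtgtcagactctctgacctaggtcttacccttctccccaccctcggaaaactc
Cldn2: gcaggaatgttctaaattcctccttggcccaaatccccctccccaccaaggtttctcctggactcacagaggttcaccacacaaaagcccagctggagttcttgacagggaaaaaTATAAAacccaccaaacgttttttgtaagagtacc

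Each promoter was searched over the 250 bases before its start for CAGGTG (the E-box that Snail and Zeb repressors are known to bind), AACCGGTT (the site of grainyhead-like factors) and TATAAA (the TATA box). The E-box was found in 17.2% of 32851 RefSeq mouse promoters of that length, and the TATA box in 12.4%. Cldn4 held an E-box whose first base lies at -14, printed above as its reverse complement, and Cldn2 held a TATA box at -35. The Cldn3 window and the printed Cldn7 start held none of the 3 motifs, and neither did Cldn1. The window read for Tjp1 (chr7:65371245-65371494, minus strand) also held none, and it lies inside the gene's span (chr7:65296165-65527781). A further RefSeq start of Cldn7, inside the gene, held E-boxes at -97 and -57, and a further start of Ocln held them at -213 and -68. The grainyhead-like site (0.116% of all promoters) was found in none of the 7 genes. The 3 claudins that rose together thus shared none of these motifs at the starts printed.

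Because these shifts change the mixture of claudins, the share of each in the summed FPKM of the 5 was computed within each library, which does not depend on any scaling between libraries. Cldn2 made up 74.1%, 59.0%, 75.7% and 71.8% of the 5 claudins in the sham libraries, and the low value was sham replicate 2. In UUO2 the share was 37.7% to 63.8%, and in UUO7 it was 15.7% to 19.8%, with no overlap between UUO7 and the other 2 groups. In R4W it was 28.3% to 34.0%, above UUO7 and below sham in every library. The 5 claudins together gave 207 ± 10.6 FPKM in sham and 505 ± 15.2 FPKM in UUO7 (SD, n = 4). Cldn4 alone went from 8.04% ± 5.04 of them in sham to 35.8% ± 1.68 in UUO7 and 25.1% ± 2.93 in R4W. The mean ratio of Cldn2 to Cldn4 was 11.1 in sham, 2.85 in UUO2, 0.517 in UUO7 and 1.21 in R4W. The sham range (3.80 to 15.6, the lowest being sham replicate 2) overlapped that of UUO2 (1.39 to 5.24). UUO7 (0.422 to 0.582) and R4W (1.04 to 1.41) lay below sham.

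**Figure D3:**
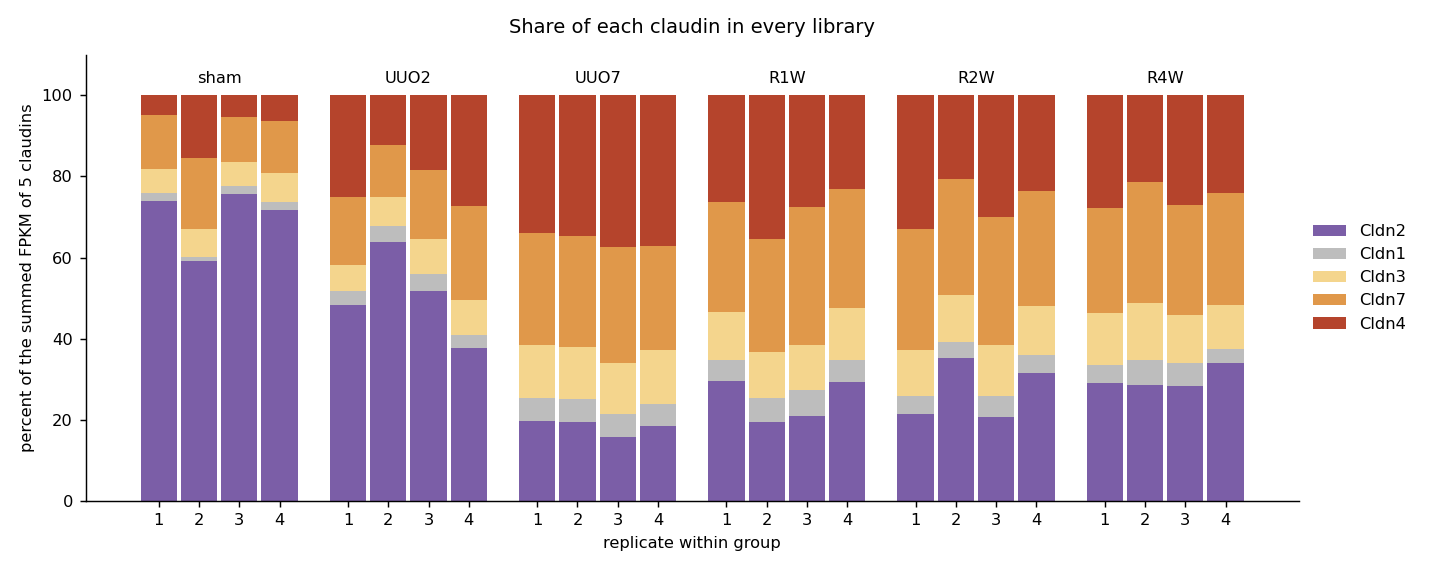
Share of each claudin in the summed FPKM of the 5 (y axis, percent) in every library (x axis, replicate within group). Cldn2 takes 59.0% to 75.7% of the bar in sham, 15.7% to 19.8% in UUO7 and 28.3% to 34.0% in R4W.

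The ratios among the rising claudins were computed within libraries too. The ratio of Cldn7 to Cldn3 was 2.07 ± 0.338 (SD, n = 4) in sham, 2.25 ± 0.449 in UUO2, 2.11 ± 0.141 in UUO7, and, after 1, 2 and 4 weeks of recovery, 2.48 ± 0.355, 2.51 ± 0.122 and 2.26 ± 0.240. The sham and UUO7 ranges overlapped, and every R2W library (2.37 to 2.66) lay above every UUO7 library (1.92 to 2.26). The ratio of Cldn4 to Cldn3 was 2.21 in sham replicate 2, 0.786 to 0.908 in the other 3 sham libraries and 2.60 to 2.95 in UUO7. Within groups, after subtracting each group's mean, Cldn3, Cldn4 and Cldn7 also varied together over the 24 libraries (Pearson r = 0.85 for Cldn4 and Cldn7, 0.83 for Cldn3 and Cldn7, 0.73 for Cldn3 and Cldn4). These correlations are descriptions, since the genes share each library's tissue and scaling.

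Markers of nephron segments moved at the same time. The 10 proximal tubule markers summed to 5948 to 6927 FPKM in sham, 2671 to 4043 in UUO2, 1533 to 1989 in UUO7 and 3218 to 4295 in R4W. The 8 principal cell markers (Aqp2, Aqp3 and others) summed to 389 to 953 FPKM in sham, 386 to 837 in UUO2, 302 to 403 in UUO7 and 635 to 1280 in R4W. These 8 did not move alike. In UUO7 Aqp2, Aqp3, Aqp4 and Avpr2 lay below the sham range, and Scnn1b, Scnn1g, Hsd11b2 and Fxyd4 overlapped it. Aqp2 was 143 to 529 FPKM in sham and 64.0 to 113 in UUO7, where Hsd11b2 was 80.8 to 90.5 and 68.1 to 95.7. Shares of this sum given below therefore also carry the fall of its aquaporins. None of the 18 genes was at 0 in all libraries of a group. Their part in the claudin levels was not tested, and the direct comparison within libraries is as follows. Cldn2 was 2.18% to 2.28% of the proximal tubule sum in the 4 sham libraries, 4.10% to 6.19% in UUO2, 4.95% to 6.24% in UUO7 and 2.37% to 2.94% in R4W. Its fall in FPKM was thus smaller than that of the summed markers, and its share of that sum in R4W lay just above sham in every library. The sum is mostly Slc34a1 (2548 to 2992 FPKM in sham) and Slc27a2 (1980 to 2445). Its members did not recover alike: in R4W Slc34a1 was 1271 to 1842 FPKM, whereas Aqp1, at 273 to 389, overlapped sham (361 to 373). Cldn4 was 2.34% to 3.62% of the principal cell sum in sham, sham replicate 2 included, 48.1% to 55.9% in UUO7 and 6.62% to 11.1% in R4W. UUO2 replicate 2, with 3.77%, stood near sham, and the other 3 UUO2 libraries were at 15.2% to 22.8%. Replicate 2 also had the highest proximal tubule and principal cell sums of the UUO2 group (4043 and 837 FPKM). Cldn7 went from 4.06% to 6.62% of that sum in sham to 35.8% to 44.2% in UUO7, and Cldn3 from 1.63% to 3.12% to 16.3% to 20.9%.

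**Figure D4:**
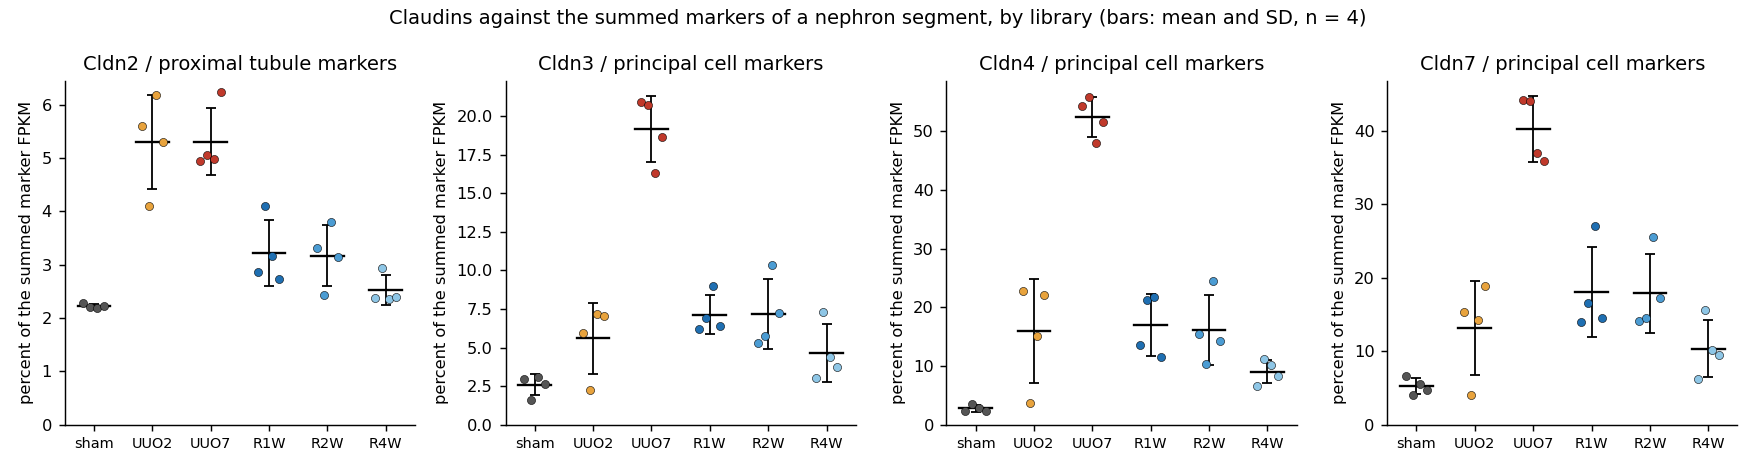
Cldn2 as a percent of the summed FPKM of 10 proximal tubule markers, and Cldn3, Cldn4 and Cldn7 as a percent of the sum of 8 principal cell markers (y axes, from 0), by group (x axis); points are libraries, bars the mean and SD (n = 4). Cldn4 lies at 48.1% to 55.9% in UUO7, where sham lies at 2.34% to 3.62%.

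Other cell populations that can carry these claudins also differed. The 10 injured tubule markers (Havcr1, Lcn2, Krt8, Krt18 and others) summed to 138 to 240 FPKM in sham, 1995 to 2475 in UUO7 and 572 to 735 in R4W. Against that sum Cldn4 was 9.24% ± 3.43 (SD, n = 4) in sham, 5.24% ± 1.71 in UUO2, 8.23% ± 0.695 in UUO7 and 11.6% ± 1.20 in R4W. The make-up of the sum differed between groups. In sham Krt8 (66.3 to 85.2 FPKM) and Krt7 (52.0 to 78.3) led it, and in UUO7 Lcn2 (748 to 1107) and Havcr1 (429 to 510). Havcr1 was 7.79 to 24.7 FPKM in R4W. These shares are therefore set against a changing mixture, and the part of injured tubule cells in the Cldn4 level was not tested. The UUO2 libraries, at 7.01% or less, overlapped sham (6.92% to 14.3%) and lay below every UUO7 library. UUO2 replicate 2 had the lowest injured tubule sum of its group (877 FPKM, in a range up to 1607). The urothelial sum was 19.3 to 36.6 FPKM in UUO7 and 46.2 to 151 in R4W, and all 6 urothelial markers with a row were called higher in R4W against sham on both scales, where 54.8% of all genes were higher on deposited and 28.9% on rescaled values. In UUO2 it was 0.55 to 3.82 FPKM, within or near the 1.74 to 3.10 of the 3 lower sham libraries. Its part in the claudin levels was not tested.

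Among the cadherins, Cdh1 (E-cadherin, the cadherin of distal tubules and collecting ducts) was not called lower than sham in any group on either scale. Its sham level was 40.4, 58.6, 42.5 and 47.6 FPKM, its UUO2 level 45.8 to 48.7 FPKM, and its UUO7 level 65.3, 66.0, 75.3 and 80.4 FPKM. All UUO7 libraries lay above all sham libraries on deposited values. The difference at 7 days was 0.60 (SE 0.12, limma adjusted p = 0.000127) on deposited values and 0.12 (95% interval -0.08 to 0.32, adjusted p = 0.262) on rescaled values, so its call depended on the scale. In R4W Cdh1 was 78.4, 65.1, 70.0 and 74.8 FPKM, and was called higher than sham on deposited (0.61, adjusted p = 0.000199) and rescaled values (0.24, adjusted p = 0.037), although on the latter the groups overlapped. The authors' deposited table does not call it in R1W (adjusted p = 0.157), R2W (0.144) or R4W (0.23, adjusted p = 0.0658) against sham.

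Cdh16 (Ksp-cadherin, a kidney-specific cadherin of the basolateral membrane of tubular cells) was the most abundant of the 10, at the 98.9th percentile of all genes in sham. It was 558, 661, 527 and 579 FPKM in sham and 353, 465, 342 and 404 FPKM in UUO2, every UUO2 library lying below every sham library. It fell by 0.58 (SE 0.09, limma adjusted p = 2.92e-05) at 2 days, and by 0.71 on rescaled values. At 7 days it was 545, 468, 583 and 520 FPKM, and the difference from sham was -0.13 (adjusted p = 0.185) on deposited values and -0.62 (adjusted p = 9.88e-06) on rescaled values. In R4W it was 649, 578, 656 and 666 FPKM, with differences of 0.14 (not called) and -0.24 (adjusted p = 0.0414). The latter was lost when sham replicate 2 was left out (adjusted p = 0.102). Cdh16 was the only one of the 10 genes called lower at 2 days on either scale. The ratio of Cdh16 to Cdh1 within a library lay below the sham range in every obstructed library: it was 11.3 to 13.8 in sham, 7.33 to 10.2 in UUO2 and 6.47 to 8.35 in UUO7, and 8.29 to 9.38 in R4W.

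Cdh2 (N-cadherin, present in the proximal tubule and in mesenchymal cells) was the lowest of the 10 in each group. It ranged from 2.02 to 2.43 FPKM in sham, 2.28 to 3.20 in UUO2, 2.59 to 3.44 in UUO7 and 2.15 to 2.85 in R4W. On deposited values it was higher in UUO7 than in sham by 0.31 (SE 0.09, limma adjusted p = 0.00442), with no overlap. On rescaled values that difference was -0.05 (95% interval -0.24 to 0.15, adjusted p = 0.678). The ratio of Cdh1 to Cdh2, the usual readout of a cadherin switch, was 16.8 to 29.0 in sham, 19.0 to 29.1 in UUO7 and 25.6 to 34.5 in R4W, so that E-cadherin exceeded N-cadherin in every library by at least the 14.6 of the lowest UUO2 library. Meanwhile the 8 fibroblast and pericyte markers summed to 34.8 to 81.5 FPKM in sham and 665 to 843 FPKM in UUO7.

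Tjp1 (ZO-1, the scaffold that ties claudins and Ocln to actin) rose, whereas Ocln (occludin, a transmembrane protein of the same strands) did not. Tjp1 was 5.88, 7.80, 5.91 and 6.35 FPKM in sham, 6.80 to 8.27 FPKM in UUO2, and 15.1, 17.1, 11.5 and 18.2 FPKM in UUO7. Sham and UUO2 overlapped, and UUO7 lay above both. It did not pass the test at 2 days (0.20, 95% interval -0.11 to 0.50, limma adjusted p = 0.283), and rose by 1.12 (SE 0.15, adjusted p = 5.76e-07) at 7 days, or by 0.69 on rescaled values. Its R4W level was 15.8, 18.2, 16.2 and 16.5 FPKM, inside the UUO7 range on deposited values. On rescaled values R4W replicates 2 and 4 (16.8 and 16.0) lay above the highest UUO7 library (15.4). The annotation places 3 other gene models within the Tjp1 span, and 1 antisense model, Gm15485, over Cdh2. For these as for Cldn3, the sources used here do not say whether reads were assigned by strand.

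Ocln ranged from 9.44 to 10.6 FPKM in sham, 9.90 to 11.3 in UUO2, 8.73 to 11.1 in UUO7 and 8.77 to 11.9 in R4W, and all these ranges overlapped. On deposited values no difference from sham was called (-0.04 at 7 days, 95% interval -0.30 to 0.23, limma adjusted p = 0.803). On rescaled values Ocln was lower than sham by -0.48 (adjusted p = 0.000965) in UUO7 and by -0.30 (adjusted p = 0.0334) in R4W. The ratio of Tjp1 to Ocln, which no scaling alters, was 0.556 to 0.781 in sham, 0.601 to 0.835 in UUO2, 1.31 to 1.75 in UUO7 and 1.41 to 1.85 in R4W, without overlap between the 2 earlier and the 2 later groups. Over the 24 libraries, deviations of Tjp1 and Ocln from their group means had a Pearson r of 0.72.

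The 2-day kidneys were set against sham and against the 7-day kidneys, with the limit that their sequencing and their group cannot be told apart. Against sham, 5 of the 10 genes were called in UUO2 on both scales, 4 higher and 1 lower, where 49.2% of all genes were called on deposited values (32.3% higher, 17.0% lower) and 50.8% on rescaled values (25.3% higher, 25.5% lower). The 4 higher were Cldn1, Cldn3, Cldn4 and Cldn7, and the lower was Cdh16. From UUO2 to UUO7, 8 genes were called on each scale, where the background was 66.7% and 62.0%, and 7 of them were called on both. Cldn4 rose by a further 1.46 (SE 0.36, limma adjusted p = 0.00121), Cldn3 by 1.33, Cldn7 by 1.27 and Cldn1 by 1.14. In the same interval Tjp1 rose by 0.93, Cdh1 by 0.59 (adjusted p = 0.00025) and Cldn2 fell by 0.81, none of which had been called at 2 days. All 7 were called on rescaled values too, Cdh1 by 0.24 (adjusted p = 0.0349) and with every UUO7 library above every UUO2 library on both scales. Cdh16 was higher by 0.44 (adjusted p = 0.000256) on deposited values and 0.09 (adjusted p = 0.439) on rescaled values, and the authors' deposited table gives -0.24 (adjusted p = 0.15). Ocln differed by -0.08 (adjusted p = 0.568) on deposited and -0.40 (adjusted p = 0.00512) on rescaled values.

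In the first week after reimplantation, Cldn3 was the only claudin of the 5 that fell on both scales. In R1W against UUO7, 2 of the 10 genes were called on deposited values, both lower, where 14.5% of all genes were called and 8.04% were lower. Cldn3 was called lower on both scales (-0.60, SE 0.15, limma adjusted p = 0.012; rescaled -0.56), and Cdh2 on deposited values only (-0.28, adjusted p = 0.0478; rescaled -0.24, adjusted p = 0.0876). On rescaled values 2 genes were also called, at a background of 14.4% (7.26% higher, 7.14% lower), namely Cldn3 and, higher, Cdh16 (0.30, adjusted p = 0.0496). Cldn4 was lower by -0.84 (adjusted p = 0.113) and Cldn1 by -0.43 (adjusted p = 0.136), neither past the threshold, although no R1W library of either gene reached the UUO7 range. Cldn7 differed by -0.37 (adjusted p = 0.248) and Cldn2 by -0.07 (adjusted p = 0.668). These calls depended on the fit: with only the 2 groups fitted, limma called Cldn4 (adjusted p = 0.0337) and lost Cdh2 (adjusted p = 0.108), and with UUO2 left out it called Cdh16 higher on deposited values (0.26, adjusted p = 0.031, against 0.0612 with all groups). The authors' deposited table has 4 of the 10 genes under an adjusted p of 0.05, at a background of 21.5% of its genes: Cldn3 (1.64e-10), Cldn4 (0.000423), Cldn1 (0.028) and Cdh16 (0.00387). From R1W to R4W limma called none of the 10 on either scale, at backgrounds of 19.1% and 17.3%. At an unadjusted p under 0.05 it called 1 on deposited and 0 on rescaled values, where 35.4% and 35.1% of all genes passed, and the authors' deposited table called 0 at an adjusted p under 0.05, where 17.9% of its genes passed.

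Over the whole recovery 4 of the 5 claudins fell, and Cldn2 did not pass the test. In R4W against UUO7, a comparison added after the data were seen, 6 genes were called on deposited values (1 higher and 5 lower; background 48.4%, of which 17.6% higher and 30.8% lower) and 5 on rescaled values (1 higher and 4 lower; background 48.3%, of which 25.1% higher and 23.2% lower). Cldn4 fell by 1.18 (SE 0.36, limma adjusted p = 0.00955), Cldn1 by 0.84 (adjusted p = 0.0015), Cldn3 by 0.74 (adjusted p = 0.000453) and Cldn7 by 0.65 (adjusted p = 0.0164), each also called on rescaled values and each without overlap. Cdh16 rose by 0.27 (adjusted p = 0.0192) and by 0.38 on rescaled values, and the deposited call was lost without UUO7 replicate 2 (adjusted p = 0.075) or R4W replicate 4 (0.0535). Cldn2 differed by 0.03 (95% interval -0.18 to 0.24) and Tjp1 by 0.12 (-0.18 to 0.43), and neither was called on either scale.

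Set against sham, most of the 7-day displacement was still there. On deposited values, 7 of the 10 genes were called in each of R1W, R2W and R4W, 6 higher and 1 lower, where 74.1%, 69.0% and 66.4% of all genes were called, 59.4%, 56.1% and 54.8% higher and 14.7%, 12.9% and 11.6% lower. The 6 higher were Cdh1, Tjp1, Cldn1, Cldn3, Cldn4 and Cldn7, and the lower was Cldn2. On rescaled values 10, 9 and 10 were called, at backgrounds of 68.3%, 63.6% and 60.1%, where Cdh2, Cdh16 and Ocln were called lower in each group and Cdh1 was not called in R2W (0.19, adjusted p = 0.0839). With sham replicate 2 also left out, Cdh16 lost its rescaled call in R2W (adjusted p = 0.0745) as in R4W, and Cdh1 was called in R2W (0.27, adjusted p = 0.0201). In R4W the differences from sham were 2.33 for Cldn4 (SE 0.36, limma adjusted p = 1.14e-05), 1.91 for Cldn1 (adjusted p = 6.48e-08), 1.62 for Cldn7, 1.46 for Cldn3, 1.24 for Tjp1 and -0.60 for Cldn2 (adjusted p = 3e-05). On the log2 scale and deposited values, R4W kept 66.3% of the 7-day difference of Cldn4 and of Cldn3, 69.6% for Cldn1 and 71.3% for Cldn7. For Cldn2 it kept 95.2% and for Tjp1 111%. On rescaled values these shares were 64.8% (Cldn4), 63.6% (Cldn3), 68.7% (Cldn1), 69.8% (Cldn7), 87.5% (Cldn2) and 133% (Tjp1). The median of the 10 differences was 0.93 on deposited and 0.57 on rescaled values, against 0.30 and -0.01 over all genes. These medians too are descriptions of genes chosen with earlier results known.

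The other genes of these junctions were read from lists chosen by function. Of 9 further claudins with a row, 6 were called higher and 2 lower in UUO7 against sham on deposited values, and 5 and 2 on rescaled values. Over all genes 60.1% were higher and 17.8% lower on deposited values, and 36.5% went each way on rescaled values, and these shares are the background for the lists that follow as well. The 8 of 9 claudins called lie near the 77.9% of all genes. The largest differences called on both scales were those of Cldn6 (2.38), a claudin of embryonic epithelia, Cldn14 (1.93), Cldn5 (1.35), the claudin of endothelium, and Cldn15 (1.32). With these included, Cldn2 went from 30.4% ± 3.68 (SD, n = 4) of all claudin FPKM in sham to 28.6% ± 3.57 in UUO2, 12.6% ± 1.21 in UUO7 and 15.8% ± 0.515 in R4W. Over all claudins the UUO2 range (23.4% to 31.1%) thus lay largely inside that of sham (25.4% to 33.4%). Of 20 other tight junction membrane and scaffold genes, 10 were higher and 3 lower on deposited values and 7 higher and 9 lower on rescaled values, with a median difference of 0.42 and -0.04. Lsr, the angulin of tricellular junctions, rose by 1.72, the adhesion molecules Jam2 and F11r by 1.45 and 1.28, and Cxadr by 0.96.

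Among 11 catenin and nectin genes, which form the inner part of adherens junctions and the immunoglobulin-like adhesion system beside them, 8 were higher and 1 lower on deposited values (6 and 3 on rescaled values), where 77.9% and 73.0% of all genes were called. Nectin2 rose by 1.63, Jup (plakoglobin) by 1.42, Nectin4 by 1.40 and Ctnnb1 (beta-catenin) by 1.05. All 5 further cadherins with a row were higher on both scales (60.1% and 36.5% of all genes were), among them Cdh11 (3.23), a cadherin of mesenchymal cells, Cdh3 (P-cadherin, 2.38), Cdh5 (1.56), the cadherin of endothelium, and Cdh6 (1.14), a cadherin of the developing proximal tubule. Cdh3, Cdh6 and Cdh11 thus rose at the stage at which Cdh1 and Cdh2 gave no call against sham common to both scales. Of 9 desmosome genes 5 were higher and 1 lower (3 and 3 on rescaled values), against 60.1% and 17.8% of all genes (36.5% each way on rescaled values), with Dsg2 up by 1.01, Pkp3 by 0.82 and Dsc2 by 0.66, while Pkp4 fell by 0.42. All 6 gap junction genes were called on both scales, beside 77.9% and 73.0% of all genes, 4 higher, such as Gja1 (1.56), Gjc1 (1.51) and Gja5 (0.92), and 2 lower, such as Gjb2, which fell by 1.19.

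Transcription factors known to act on junction genes were read in the same comparison. All 5 measured factors of the mesenchymal list, which are known as repressors of Cdh1 or inducers of mesenchymal genes, were higher in UUO7 on both scales, Snai1 by 1.80, Snai2 by 1.54, Twist1 by 1.54 and Zeb2 by 1.41. Over all genes 60.1% were higher on deposited and 36.5% on rescaled values. Of 13 epithelial transcription and splicing factors, 5 were higher and 4 lower on deposited values, and 3 higher and 6 lower on rescaled values, where 17.8% and 36.5% of all genes were lower. The 9 of 13 called on each scale lie near the 77.9% and 73.0% of all genes. Elf3 rose by 2.50 and Klf4 by 1.91, and Hnf4a, a regulator of proximal tubule genes, fell by 1.52. Fibroblasts and endothelium also express several of the mesenchymal list. The 6 endothelial markers, of which Cdh5 is 1, summed to 49.5 to 89.6 FPKM in sham, 24.9 to 58.1 in UUO2 and 134 to 151 in UUO7, none was at 0 in all libraries of a group, and 5 were called higher in UUO7 against sham on deposited values and 4 on rescaled values. The part of these cells in the levels of the mesenchymal list, Cdh5, Cdh11 and Cldn5 was not tested.

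For each junction gene the 3 genes of most similar profile were found by the root mean square difference of centred log2(FPKM + 1) over the 24 libraries, among 9664 named genes averaging 5 FPKM or more. For Cldn4 the nearest was the keratin gene Krt18 (0.168, against a spread of 1.18 in Cldn4 itself), followed by Akr1b8 and Myof. Krt18, one of the injured tubule markers, went from a mean of 16.5 FPKM in sham to 152 in UUO7 and 84.3 in R4W, where Cldn4 went from 17.0 to 181 and 79.1. For Cldn2 they were Enpp3 (0.0913), Pafah2 and Tmem144, for Tjp1 Parp12 (0.0886), Tmem63a and Setd7, and for Cldn1 Rcn1 (0.242), Birc3 and Lxn. Cldn3 was nearest to Praf2, Map7d1 and B4galt2, and Cldn7 to Hdac7, Map7d1 and Nfkb1, so that Map7d1 stood among the 3 nearest of both. Cdh1 was nearest to Enpp4, Dlg1 and S100pbp, Cdh16 to Top3b, Rnf167 and Mppe1, Cdh2 to Ttc27, Ubb and Faf2, and Ocln to Fkbp3, Trim44 and Ammecr1l. Among the 10 genes themselves, Cldn3 and Cldn7 were the closest pair.

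The authors' deposited table gives its own fold changes and adjusted p-values for the same libraries. It places 8 of the 10 genes under an adjusted p of 0.05 in UUO7 against sham, 5 higher and 3 lower, the same counts as the rescaled values. Of all genes with an adjusted p in the authors' deposited table, 73.7% were under 0.05, 35.8% higher and 37.9% lower, so the count of 8 is close to that background. In the authors' deposited table the log2 fold changes at 7 days were 2.94 for Cldn4, 2.54 for Cldn1, 1.89 for Cldn7, 1.77 for Cldn3, 0.54 for Tjp1 and -1.14 for Cldn2. For Cdh1 the authors' deposited table gives 0.11 with an adjusted p of 0.386, and for Ocln -0.41 with 2.23e-05. For R4W against UUO7 the authors' deposited table has Cldn4 at -1.12, Cldn1 at -0.77, Cldn3 at -0.68, Cldn7 at -0.49 and Cdh16 at 0.76.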

How the data were processed

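RNA of 24 mouse kidneys (6 groups of 4, n = 4 animals each) was read from a deposited table of 1 value per gene and library. The deposited values were taken to be FPKM from their size and from their whole-fragment steps; the table holds no gene with a mean below 1. The submitters' processing notes name FastQC, RSEM, Bowtie2, DESeq2 and mm10, with no role or version. The log2 fold changes and p-values of the authors' deposited table were copied, not recomputed.

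Values were transformed to log2(FPKM + 1) and fitted with limma 3.58.1 in R 4.3.3 (1 coefficient per group, all 24 libraries, trended empirical Bayes, two-sided tests, Benjamini-Hochberg over 14785 genes, called at an adjusted p under 0.05). Rescaled values were divided by each library's median ratio to the geometric mean over libraries (group means 0.814 to 1.14). On data simulated for UUO7 against sham over 14785 genes, 107 of 200 genes changed by 0.5 and 178 of 200 changed by 1 on the log2 scale were recovered. In these 2 runs 7 and 8 unchanged genes were called. Only 200 genes were changed there, whereas 77.9% of all genes were called in the data, so these rates do not carry over to the data. Shares, ratios and sums of marker genes were computed within libraries with Python 3.11.15, numpy 2.4.6 and pandas 2.3.3, and figures drawn with matplotlib. Promoter sequences are from RefSeq (GRCm38.p6) and gene spans from the deposited table, identical for the 10 genes in GENCODE M21. No promoter is given for Cdh1 and Cdh16, and none for Cdh2.

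All 10 members are named. From each junction list up to 4 genes are named, those of greatest absolute log2 fold change in UUO7 against sham among genes called in 1 direction on both scales, and for each member the 3 most similar genes. A gene that this rule also names is not reported here. Members, lists and tests were chosen with earlier results of these data known. Alternatives were other pseudocounts, a filter on low values, rescaling, only the groups compared, a replicate block, a minimum fold, the fit without UUO2, the other label of the R4W library, and leaving out each library. The numbers of replicates name different animals, and in no comparison were the correlations of deviations of all 4 same-numbered pairs over 0.1 (single pairs from -0.331 to 0.451), so the numbers were not taken to pair samples. Depth was about 24574000 to 35336000 fragments in 20 libraries and is unknown for UUO2, so no counting interval is given.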

Additional observations from a re-analysis of the deposited data

Results flagged for a closer look

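In each group of 4 libraries, the highest and the lowest value of each junction gene were compared with the rest. Of 60 such groups, 3 held a library that stood apart by Dixon's criterion, and chance flags about 1 in 20 groups, or 3 of 60. All 3 were sham replicate 2. Its Cldn4 level was 34.47 FPKM, where the other sham libraries had 9.74 to 12.84 FPKM. Its Cldn1 level was 2.25 FPKM, where the others had 3.61 to 3.84 FPKM. Its Cdh2 level was 2.02 FPKM, where the others had 2.36 to 2.43 FPKM. The same library had the highest principal cell and urothelial marker sums of the sham group (953 and 39.5 FPKM). It also had that group's highest injured tubule sum (240 FPKM) and fibroblast and pericyte sum (81.5 FPKM). The part of these in its Cldn4, Cldn1 and Cdh2 levels was not tested. Without it, Cldn4 differed between UUO7 and sham by 3.91 and Cldn1 by 2.61 on the log2 scale, where all 4 sham libraries gave 3.52 and 2.74.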

How the results depend on the processing

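The calls of Cldn1, Cldn3, Cldn4, Cldn7, Tjp1 and Cldn2 in UUO7, R1W, R2W and R4W against sham kept their direction and their side of the threshold under each alternative listed in the processing section, apart from the minimum fold, under which Cldn2 was not called in any of the 4 and Tjp1 was kept. Requiring a log2 fold change of 1 or more in either direction left 3 junction genes in UUO2 against sham, 5 in UUO7 against sham, 4 in UUO7 against UUO2, 0 in R1W against UUO7 and 1 in R4W against UUO7. Over all genes it left 1294 of 7279, 4076 of 11512, 2391 of 9855, 196 of 2145 and 892 of 7155 in these comparisons, 114 of 2830 in R4W against R1W, and 3019 of 10954, 2454 of 10204 and 2182 of 9811 in R1W, R2W and R4W against sham. In R1W against UUO7, 1 junction gene in place of 2 was called with a pseudocount of 0.1 or a mean of at least 5 FPKM, which leaves Cdh2 out, and 1 to 2 when a library was left out (1 without each of 6 of the 8 libraries); the cause was not tested. For all genes, leaving out a library gave as few as 1116 calls there (without R1W replicate 4), and in R4W against R1W as few as 728 (without R1W replicate 3), where the fit of only those 2 groups gave 161.

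With the replicate number as a block, R1W against UUO7 called 1 junction gene in place of 2, Cdh2 being lost, and no other comparison changed its count of junction genes. The numbers share no animal, and libraries correlated best with their own number in 0 to 6 of 8 cases in each comparison, so the numbers were not taken to pair the samples.

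On rescaled values the sign turned for Cdh1 (-0.12) and Ocln (-0.076) in UUO2 against sham, for Cdh2 in UUO7 against sham (-0.045) and against UUO2 (-0.086), for Cdh1 in R4W against R1W (0.019), for Cdh2 and Cdh16 in R1W against sham (-0.29 and -0.33), for Cdh16 in R2W against sham (-0.26), and for Cdh2, Cdh16 and Ocln in R4W against sham (-0.22, -0.24 and -0.30). With sham replicate 2 also left out, chosen after seeing the data, the values against sham were -0.043 (Cdh1), -0.028 (Cdh2), -0.11 (Ocln) and -0.037 (Cldn2) in UUO2, -0.11 (Cdh2) in UUO7, -0.36 and -0.29 (Cdh2, Cdh16) in R1W, -0.23 (Cdh16) in R2W, and -0.29, -0.21 and -0.33 (Cdh2, Cdh16, Ocln) in R4W. With R4W replicate 2 placed in R2W, Cdh2 had -0.00064 in R4W against R1W, Cdh2 0.011 and Ocln 0.036 in R2W against sham, and Ocln -0.0067 in R4W against sham.

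Leaving out libraries turned the sign only of differences that were not called. In UUO2 against sham Cdh1 ranged from -0.055 to 0.12, and in UUO7 against sham Ocln from -0.086 to 0.017. In R1W against UUO7 the ranges were -0.074 to 0.13 (Cdh1), -0.16 to 0.092 (Ocln) and -0.13 to 0.13 (Tjp1). In R4W against R1W they were -0.12 to 0.083 (Cdh1), -0.041 to 0.055 (Cdh2), -0.012 to 0.059 (Cdh16), -0.0081 to 0.25 (Ocln) and -0.012 to 0.25 (Tjp1). Against sham they were -0.0099 to 0.090 (Cdh2) and -0.20 to 0.057 (Ocln) in R1W, -0.054 to 0.0093 (Cdh2) and -0.062 to 0.077 (Ocln) in R2W, and -0.0082 to 0.088 (Cdh2) and -0.0067 to 0.13 (Ocln) in R4W. In R4W against UUO7 they were -0.034 to 0.064 (Cdh1), -0.029 to 0.061 (Cldn2) and -0.0061 to 0.20 (Tjp1). FPKM without counts gives no counting error, which limits Cdh2 most, at 2 to 3 FPKM.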

Other observations

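Cdh1, expressed along the distal nephron and collecting duct, was 8.92% ± 2.03 (SD, n = 4) of the summed principal cell markers in the sham libraries, 20.8% ± 1.45 at 7 days and 8.23% ± 1.69 in R4W, where its range overlapped sham. Against the summed thick ascending limb markers it was 1.72% to 2.36% in sham, 5.36% to 6.60% in UUO7 and 2.71% to 3.96% in R4W, where it did not overlap sham. Cdh16 was 22.4% to 26.6% of the summed thick ascending limb markers in sham, 28.0% to 45.5% in UUO2, 35.6% to 51.1% in UUO7 and 24.1% to 37.1% in R4W. That sum was 2316 to 2581 FPKM in sham and 750 to 1659 in UUO2, so at 2 days it fell by more than Cdh16 did. Cdh2 was 0.0355% ± 0.00181 of the proximal tubule sum in sham and 0.178% ± 0.0291 in UUO7. Against the fibroblast and pericyte sum it went the other way, from 5.44% ± 2.01 in sham to 0.424% ± 0.0635 in UUO7.

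Cdh16 at 7 days is the junction gene whose size depends most on the source of the value: its log2 difference from sham was -0.13 on deposited FPKM, -0.62 on rescaled FPKM and -1.06 in the authors' deposited table. Among 10309 genes averaging 5 FPKM or more, 6.25% had as large a gap between the authors' deposited table and the rescaled values. In R4W against sham the same gene had -0.25 in the authors' deposited table and -0.24 on rescaled values.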
